A study of Mus musculus with 4 samples.

Results

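Fibulins and elastic fiber genes were examined in cerebellar tissue of mice with 1 disrupted copy of Kdm3b, a histone demethylase gene (Kdm3b+/-), and in wild-type (WT) mice of the same litters. The set held 10 of the 24532 gene identifiers in the tables: the fibulins Fbln1, Fbln2, Fbln5, Fbln7, Efemp1 and Efemp2, and the elastic fiber genes Eln, Fbn1, Ltbp1 and Ltbp4. It was selected on Fbln5, which was lower in Kdm3b+/- mice in the same comparison, and the other genes were added as its relatives. The difference in Fbln5 therefore chose the set, and the values of the members are given below as a description with no p-value.

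Elastic fibers let vessel walls, skin and lung stretch and recoil. They form when tropoelastin, the product of Eln, is gathered into globules, laid onto a scaffold of fibrillin microfibrils and crosslinked by lysyl oxidases. Fibulins are secreted glycoproteins built from calcium-binding EGF-like repeats and a fibulin-type module at the carboxyl end. Fibulin-5 (Fbln5) binds tropoelastin and cell-surface integrins, fibulin-4 (Efemp2) is needed for crosslinking, and latent TGF-beta binding proteins (Ltbp) link microfibrils to elastin deposition or to stored TGF-beta. In the brain, elastic fibers are found mainly in the walls of arteries and in the leptomeninges.

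RNA was sequenced from granule cell-enriched (GCE) tissue, dissected by hand from slices of the vermis, from 2 WT and 2 Kdm3b+/- animals, each giving 1 library. All were adult males. The mutant mice carried 1 Kdm3b allele interrupted by the gene-trap vector pGT0lxf and came from 1 embryonic stem cell clone (YTC406), backcrossed to C57Bl/6N and later bred to C57Bl/6J, a related substrain. With 2 mice a group, p-values rest on few animals and on variance estimates that borrow from all genes tested.

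The promoters of Fbln5, Efemp1 and Efemp2 are shown because these 3 short fibulins of similar coding length were the members with the highest levels in WT mice, and only the first differed widely between genotypes. Each sequence is the 250 bases before a start annotated by RefSeq on GRCm38.p6, 5′ to 3′ on the strand of the gene. Capitals mark GC boxes (GGGCGG or its reverse complement CCGCCC). RefSeq gave 2 starts for Fbln5, 1 for Efemp1 and 3 for Efemp2, and the start at the edge of the gene model in the expression data was taken. For Efemp2 this lies 744 bases inside the RefSeq gene, so other starts would give other windows. The windows are chr12:101819120-101819369 on the minus strand for Fbln5, chr11:28852955-28853204 on the plus strand for Efemp1 and chr19:5474440-5474689 on the plus strand for Efemp2.
Fbln5: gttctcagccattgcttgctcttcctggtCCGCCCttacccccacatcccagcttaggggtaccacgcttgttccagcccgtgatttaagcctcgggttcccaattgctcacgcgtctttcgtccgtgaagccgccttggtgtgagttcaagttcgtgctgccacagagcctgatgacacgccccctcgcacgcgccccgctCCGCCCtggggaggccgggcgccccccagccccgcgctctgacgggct
Efemp1: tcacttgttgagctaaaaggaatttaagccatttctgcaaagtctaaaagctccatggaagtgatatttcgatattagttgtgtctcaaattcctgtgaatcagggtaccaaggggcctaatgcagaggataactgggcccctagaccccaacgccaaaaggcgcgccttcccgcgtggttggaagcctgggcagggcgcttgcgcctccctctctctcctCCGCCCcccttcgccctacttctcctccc
Efemp2: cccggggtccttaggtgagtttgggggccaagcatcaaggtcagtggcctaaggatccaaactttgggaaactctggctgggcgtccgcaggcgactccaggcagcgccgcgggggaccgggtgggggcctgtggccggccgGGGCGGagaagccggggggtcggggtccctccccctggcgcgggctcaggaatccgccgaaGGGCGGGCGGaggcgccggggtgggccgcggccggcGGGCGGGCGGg

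The Fbln5 window held 2 GC boxes, the Efemp1 window 1 and the Efemp2 window 5, with overlapping matches counted separately. CG dinucleotides numbered 21 in the Fbln5 window, 10 in that of Efemp1 and 27 in that of Efemp2, against a median of 6 over the 32851 promoters of the table. The GC content was 65.2%, 53.6% and 75.6%, and the median over all promoters was 52.4%. Promoters were found for 9 of the 10 genes. For Ltbp4, on the minus strand, the start taken lay at -2108 bases from the RefSeq edge, inside the RefSeq gene. It was 1 of 3 starts, and other starts would give other windows. On either strand, a GC box was present in 6 of these 9 and in 32.7% of all promoters, and a CCAAT box (CCAAT) in 4 of 9, Fbln5 included, and in 33.8% of all. The E-box CACGTG was found in Fbln1 alone among the 9, and in 6.02% of all promoters. TATAAA, present in 12.4% of all, and the AP-1 element TGACTCA, present in 4.46%, were in none of the 9. A match describes the letters of the window and not a bound site.

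Expression is given in TPM (transcripts scaled to 1000000 per library), which is scaled to gene length, so levels can be set beside each other between genes. In WT mice the order by mean TPM was Efemp2, Efemp1, Fbln5, Fbln1, Fbln7, Ltbp4, Eln, Fbln2, Ltbp1 and Fbn1. Among neighbours in this order, the WT values overlapped between Fbln7 and Ltbp4, between Eln and Fbln2 and between Ltbp1 and Fbn1. The lowest WT value was 3.95 times the highest Kdm3b+/- value for Fbln5, and the next of these ratios was 1.26, for Fbln7. Of the 10 genes, 6 had a mean of at least 1 TPM over the 4 libraries and entered the fit across all genes, and the other 4 (Fbln2, Eln, Fbn1 and Ltbp1) did not.

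**Figure D1:**
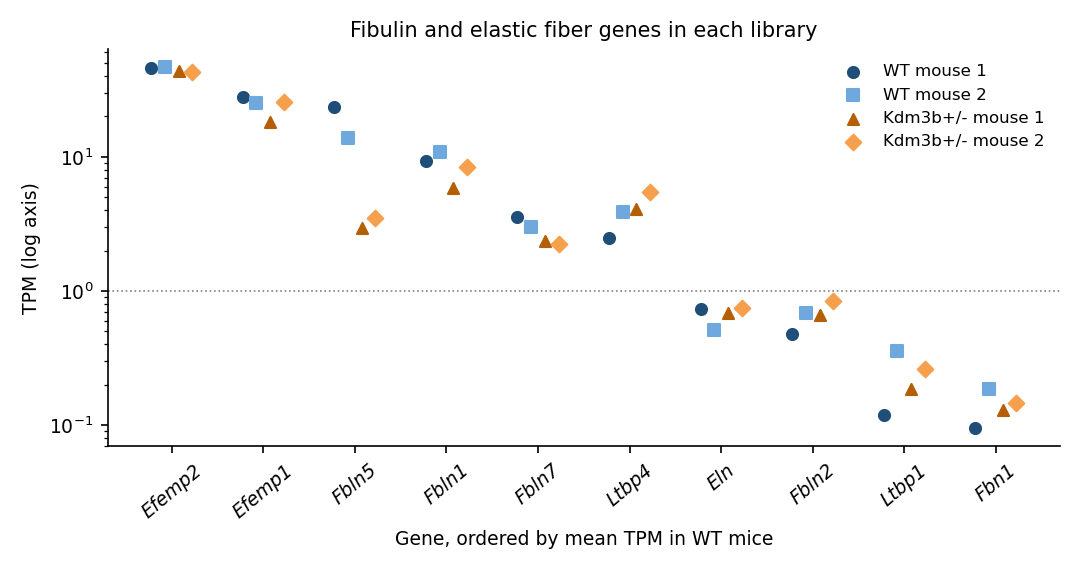
TPM of each of the 10 genes (log axis) in each of the 4 libraries, ordered by mean TPM in WT mice, with a dotted line at 1 TPM. Fbln5 lay at 23.5 and 13.7 TPM in WT mice and at 2.96 and 3.48 TPM in Kdm3b+/- mice, while the points of the other 9 genes lay close together or were mixed between genotypes.

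Fbln5 (NCBI gene 23876, chr12:101746565-101819119, minus strand) was at 23.5 TPM in WT mouse 1 and 13.7 TPM in WT mouse 2. It was at 2.96 TPM in Kdm3b+/- mouse 1 and 3.48 TPM in Kdm3b+/- mouse 2. Both WT mice were above both Kdm3b+/- mice. The means were 18.6 ± 6.93 TPM in WT mice and 3.22 ± 0.366 TPM in Kdm3b+/- mice (SD, n = 2 each), a ratio of 5.79. On the log2(TPM + 1) scale the difference was -2.17 with a limma standard error (SE) of 0.24. Every SE given here rests on a variance that borrows from all genes in the fit. It is therefore not the spread of these mice alone. With no filter on low TPM, the SE of Fbln5 was 0.33. The mean read depth over its exons was 52.2 and 33.9 in WT mice and 7.83 and 10.6 in Kdm3b+/- mice.

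Between the WT animals, Fbln5 differed by a factor of 1.71, or 0.74 on the log2(TPM + 1) scale, where the median of all genes tested was 0.19. Only 2.67% of the genes tested differed more between these mice. The Kdm3b+/- mice differed by 0.18, against a median of 0.14, and 39.9% of the genes tested differed more. Without WT mouse 1, the higher of the WT animals, the difference between genotypes was -1.81. With each library left out in turn it lay between -2.54 and -1.81.

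Among the 6 fibulins and elastic fiber genes tested, 1, Fbln5, passed the call used for differentially expressed (DEX) genes in the limma fit over 13652 genes, which asked for a fold above 1.2 and an adjusted p below 0.05. This call was met in the lower direction by 0.344% of all genes tested and in either direction by 0.461%. Since the set was chosen by this comparison, the count of members is a description. The median difference over all genes tested was -0.07 on the log2(TPM + 1) scale.

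**Figure D2:**
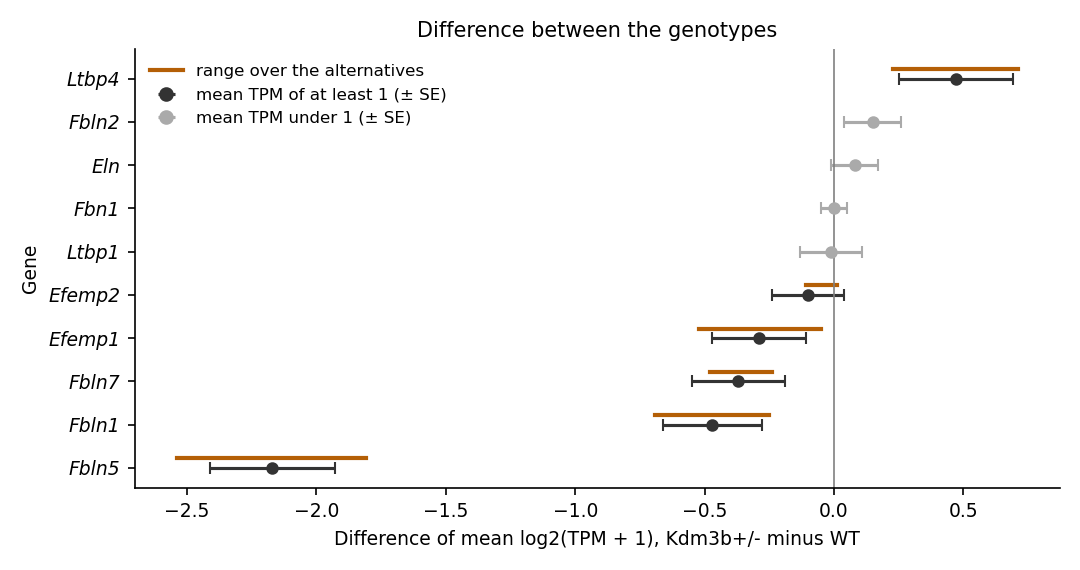
Difference of mean log2(TPM + 1), Kdm3b+/- minus WT, for each gene, with bars for ± SE and orange lines for the range over the alternative settings of genes with a mean of at least 1 TPM. Fbln5 lay at -2.17, and the other 9 genes lay between -0.47 (Fbln1) and 0.47 (Ltbp4).

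The other short fibulins were the most highly expressed members. Efemp2, chr19:5474690-5481854 on the plus strand, encodes fibulin-4, and was at 46.3 and 46.5 TPM in WT mice and at 43.4 and 42.9 TPM in Kdm3b+/- mice. The groups did not overlap, but the difference was -0.10 (SE 0.14) on the log2(TPM + 1) scale and became 0.01 after quantile normalization. Efemp1, chr11:28853205-28926743 on the plus strand, encodes fibulin-3, a matrix protein of basement membranes and connective tissue. It was at 28.1 and 25.3 TPM in WT mice and at 18.2 and 25.7 TPM in Kdm3b+/- mice, and the groups overlapped. Its difference of -0.29 (SE 0.18) ranged from -0.52 to -0.05 with 1 library left out. In the GENCODE annotation of GRCm38, the longest coding transcript held 461 codons for Fbln5, 493 for Efemp1 and 462 for Efemp2 (these are coding lengths, and the gene models differ in span).

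The longer fibulins and fibulin-7 were expressed at lower levels. Fbln1, chr15:85205949-85286294 on the plus strand, encodes a fibulin of basement membranes and elastic fibers, and was at 9.39 and 10.8 TPM in WT mice and at 5.88 and 8.33 TPM in Kdm3b+/- mice. The groups did not overlap, the difference was -0.47 (SE 0.19), and it lay between -0.69 and -0.25 with 1 library left out. Fbln7, chr2:128863932-128897034 on the plus strand, encodes a cell adhesion protein, and was at 3.55 and 3.0 TPM in WT mice and at 2.37 and 2.24 TPM in Kdm3b+/- mice. It did not overlap between the groups either, with a difference of -0.37 (SE 0.18). Fbln2, chr6:91212764-91272540 on the plus strand, is the closest relative of Fbln1 and was under 1 TPM in every library, at 0.478 and 0.686 TPM in WT mice and at 0.666 and 0.848 TPM in Kdm3b+/- mice. Its groups overlapped.

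Of the elastic fiber genes outside the fibulins, only Ltbp4 had a mean above 1 TPM. Ltbp4, chr7:27305141-27337612 on the minus strand, encodes a binding protein of latent TGF-beta that also binds fibulin-5. It was at 2.50 and 3.87 TPM in WT mice and at 4.10 and 5.43 TPM in Kdm3b+/- mice, and the difference was 0.47 (SE 0.22). The groups did not overlap, although WT mouse 2 and Kdm3b+/- mouse 1 lay close to each other, and the difference was 0.23 to 0.71 with 1 library left out.

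Eln, chr5:134702595-134747323 on the minus strand, encodes tropoelastin itself. It was at 0.739 and 0.515 TPM in WT mice and at 0.680 and 0.752 TPM in Kdm3b+/- mice, with a mean depth between 1.27 and 2.30 reads over its exons. The groups overlapped. Fbn1, chr2:125300594-125506438 on the minus strand, encodes fibrillin-1 of the microfibrils, and was at 0.0951 and 0.185 TPM in WT mice and at 0.129 and 0.145 TPM in Kdm3b+/- mice. Ltbp1, chr17:75005529-75392512 on the plus strand, encodes another binding protein of latent TGF-beta, and was at 0.120 and 0.354 TPM in WT mice and at 0.185 and 0.260 TPM in Kdm3b+/- mice. The groups overlapped for both, and at a depth of 0.211 to 0.457 over the exons of Fbn1 a difference in that gene was not detectable.

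Over the 10 genes, the groups did not overlap in 4 that were lower in Kdm3b+/- mice (Fbln5, Fbln1, Fbln7 and Efemp2) and in 1 that was higher (Ltbp4), and they overlapped in 5. Over all genes tested, 32.0% did not overlap and were lower, and 19.2% did not overlap and were higher. The 4 untested genes (Fbln2, Eln, Fbn1 and Ltbp1) all overlapped. Of the 6 tested, 4 were lower and 1 higher without overlap, and these are the counts to set beside the shares. Since Fbln5 chose the set, they are a description. None of the 10 gene models overlapped another gene model in the tables.

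Summed over the 10 genes, TPM was 115 and 105 in WT mice and 78.6 and 90.1 in Kdm3b+/- mice. Without Fbln5 the sums were 91.2 and 91.1 in WT mice and 75.6 and 86.6 in Kdm3b+/- mice. The 6 fibulins held between 92.7% and 97.0% of the sum in each library. Fbln5 made up 20.5% and 13.1% of the sum in WT mice and 3.77% and 3.86% in Kdm3b+/- mice. Efemp2 made up 40.3% and 44.3% in WT mice and 55.2% and 47.7% in Kdm3b+/- mice, and Efemp1 between 23.2% and 28.5% in all 4. The ratio of Fbln5 to Efemp1, which does not depend on how a library was scaled, was 0.838 and 0.543 in WT mice and 0.162 and 0.135 in Kdm3b+/- mice. The ratio of Fbln5 to Efemp2 was 0.508 and 0.295 in WT mice and 0.0682 and 0.081 in Kdm3b+/- mice.

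**Figure D3:**
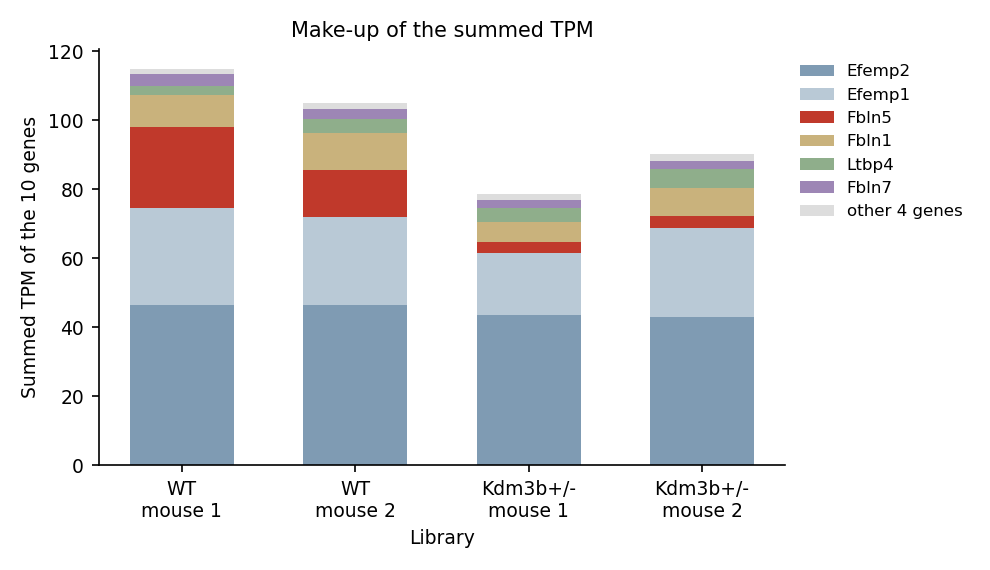
Summed TPM of the 10 genes in each library, stacked by gene, with Fbln2, Eln, Fbn1 and Ltbp1 joined as the other 4 genes. The red band of Fbln5 held 20.5% and 13.1% of the bar in WT mice and 3.77% and 3.86% in Kdm3b+/- mice, and the band of Efemp2 was between 42.9 and 46.5 TPM in all libraries.

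Further genes of elastic fibers and microfibrils were listed by function. Of 19 listed genes, Hmcn2 was not analysed here, and 9 of the other 18 were tested. None of these 9 passed the limma call, 2 had an unadjusted p under 0.05, and the median difference was -0.17, where the median over all genes tested was -0.07. An unadjusted p under 0.05 was found in 17.0% of all genes tested. The median of the list lay between -0.32 and 0.08 with 1 library left out.

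Emilin2, a glycoprotein related to the elastic fiber protein emilin-1, was at 5.47 and 5.82 TPM in WT mice and at 2.49 and 3.61 TPM in Kdm3b+/- mice. Its difference was -0.73 (SE 0.20, limma adjusted p = 0.154). Adamts10, a secreted metalloprotease that binds fibrillin-1, was at 42.4 and 78.2 TPM in WT mice and at 35.2 and 43.9 TPM in Kdm3b+/- mice (difference -0.54, limma adjusted p = 0.316), and its difference was -0.11 without WT mouse 2. The 2 groups overlapped for Adamts10 and did not overlap for Emilin2. Mmrn2, an endothelial matrix protein and the other gene with an unadjusted p under 0.05, was at 0.898 and 1.42 TPM in WT mice and at 2.15 and 1.83 TPM in Kdm3b+/- mice. Of the other Ltbp genes tested, the differences were 0.08 for Ltbp2 and -0.18 for Ltbp3, and both changed sign when 1 WT library was left out (Ltbp2 -0.15 without WT mouse 1, Ltbp3 0.05 without WT mouse 2). Ltbp2 was at 13.6 and 18.9 TPM in WT mice and at 16.3 and 17.6 TPM in Kdm3b+/- mice. Ltbp3 was at 32.6 and 45.2 TPM in WT mice and at 33.5 and 33.9 TPM in Kdm3b+/- mice.

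Of the 5 lysyl oxidases, which crosslink elastin and collagen, only Loxl3 was expressed at a mean of at least 1 TPM. It was at 4.14 and 4.61 TPM in WT mice and at 2.97 and 2.92 TPM in Kdm3b+/- mice. The groups did not overlap, and the difference of -0.44 (SE 0.18) did not pass the limma call at an adjusted p of 0.255. Lox itself, the best known crosslinking enzyme of elastin, was at 0.109 and 0.309 TPM in WT mice and at 0.0467 and 0.0937 TPM in Kdm3b+/- mice, too low to be tested.

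Integrins and other partners of fibulin-5 formed a list of 9 genes, of which 6 were tested. None passed the limma call, 1 had an unadjusted p under 0.05, and the median difference was -0.17. That gene was Itgb5, a subunit of the integrin that pairs with alpha-v. It was at 145 and 185 TPM in WT mice and at 93.3 and 103 TPM in Kdm3b+/- mice, without overlap, and its difference was -0.73 (SE 0.15, limma adjusted p = 0.105). Sod3, the extracellular superoxide dismutase that fibulin-5 tethers to the matrix, was at 31.1 and 32.7 TPM in WT mice and at 27.8 and 26.6 TPM in Kdm3b+/- mice, with a difference of -0.22 (SE 0.14, limma adjusted p = 0.446). The list also held Apoe, an apolipoprotein of astrocytes, at 5410 and 5960 TPM in WT mice and 5780 and 5860 TPM in Kdm3b+/- mice.

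Of 18 TGF-beta ligands, receptors, Smads and activators, 14 were tested and none passed the limma call. Before adjustment, 1 had a p under 0.05, and 12 of the 14 were lower in mean in Kdm3b+/- mice, with a median difference of -0.25. Of all genes tested, 60.4% were lower in mean. The median of the list was -0.12, with 9 lower, without WT mouse 2, and -0.11, with 10 lower, without Kdm3b+/- mouse 1. That 1 gene was Tgfb3, a TGF-beta ligand, at 29.8 and 35.1 TPM in WT mice and at 23.2 and 20.3 TPM in Kdm3b+/- mice (difference -0.56, SE 0.16, limma adjusted p = 0.17). Smad4, the shared mediator of the pathway, was at 60.7 and 74.8 TPM in WT mice and at 56.3 and 53.2 TPM in Kdm3b+/- mice. Tgfb1 was under 1 TPM in every library.

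Of 10 matrix proteases and inhibitors, 8 were tested, none passed the limma call, and 4 had an unadjusted p under 0.05. The median difference was -0.32. In mean, 5 were lower and 3 higher in Kdm3b+/- mice. Among the higher was Mmp14, at 5.77 and 7.18 TPM in WT mice and at 7.45 and 12.5 TPM in Kdm3b+/- mice. Timp4, a metalloprotease inhibitor, was at 582 and 420 TPM in WT mice and at 308 and 291 TPM in Kdm3b+/- mice (difference -0.72, SE 0.16, limma adjusted p = 0.112). Htra1, a secreted serine protease, was at 297 and 258 TPM in WT mice and at 211 and 221 TPM in Kdm3b+/- mice (difference -0.36, limma adjusted p = 0.235). Both were lower without overlap between the groups. Mmp9, a gelatinase, was at 2.07 and 2.98 TPM in WT mice and at 1.31 and 1.21 TPM in Kdm3b+/- mice, and Timp2, the fourth gene, was at 57.6 and 67.9 TPM in WT mice and at 41.3 and 50.3 TPM in Kdm3b+/- mice. Mmp12, the macrophage elastase, was listed at 0 in every library.

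The targeted gene and the make-up of the tissue were examined beside these values. Kdm3b was at 9.10 and 11.0 TPM in WT mice and at 8.30 and 7.90 TPM in Kdm3b+/- mice, a difference of -0.27 (SE 0.17, limma adjusted p = 0.424), so the groups did not overlap but the difference did not pass the call. All 10 granule cell markers were detected, with sums between 3540 and 4370 TPM in WT mice and between 3680 and 3740 TPM in Kdm3b+/- mice. None of them passed the limma call, 2 had an unadjusted p under 0.05, and their median difference was 0.01. Markers of other cells were present too, with oligodendrocyte markers summing to 15000 to 17900 TPM. In such bulk tissue, fewer cells of a type and less RNA per cell cannot be told apart.

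Purkinje cell markers moved with WT mouse 1, the library with the highest Fbln5. Their sum was 1650 TPM in WT mouse 1 and 715 TPM in WT mouse 2, and 918 and 741 TPM in Kdm3b+/- mice. Of the 10 listed markers 9 were tested, all 9 were lower in mean in Kdm3b+/- mice, and none passed the limma call, with 3 at an unadjusted p under 0.05. Skor2 was at 0 in 1 library. The median difference of the list was -0.51, and it was 0.01 without WT mouse 1 and -0.88 without WT mouse 2. The markers of molecular layer and Golgi interneurons also stood highest in WT mouse 1, with sums of 346 and 128 TPM in WT mice and 201 and 194 TPM in Kdm3b+/- mice, and none of the 5 tested passed the limma call, with 1 at an unadjusted p under 0.05. Without that mouse the difference in Fbln5 was -1.81. The part of Purkinje cell or interneuron content in the Fbln5 values was not tested.

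Meningeal fibroblasts and vascular cells are known sources of fibulins and elastin. The 12 fibroblast markers summed to 61.6 and 54.0 TPM in WT mice and to 43.3 and 45.1 TPM in Kdm3b+/- mice. Of the 9 tested, none passed the limma call, 4 had an unadjusted p under 0.05, and the median difference was -0.32. In mean, 7 were lower and 2 higher in Kdm3b+/- mice, where 60.4% of all genes tested were lower. The groups did not overlap in 6 that were lower and 1 that was higher, against 32.0% and 19.2% of all genes tested. Dcn, the proteoglycan decorin, was at 36.1 and 28.6 TPM in WT mice and at 23.4 and 22.2 TPM in Kdm3b+/- mice, while Lum, the related lumican, was at 1.29 and 0.984 TPM in WT mice and at 3.4 and 2.86 TPM in Kdm3b+/- mice (limma adjusted p = 0.0997). The part of fibroblast content in the fibulin values was not tested. Smooth muscle and pericyte markers summed to 170 and 180 TPM in WT mice and to 179 and 210 TPM in Kdm3b+/- mice. Most of this sum was Vtn, at 118 and 126 TPM in WT mice and 123 and 155 TPM in Kdm3b+/- mice. Endothelial markers summed to 328 and 286 TPM in WT mice and to 307 and 310 TPM in Kdm3b+/- mice. The largest part was Ly6c1, at 197 and 144 TPM in WT mice and 187 and 157 TPM in Kdm3b+/- mice. These sums therefore say little of the other markers. The median differences of these lists were 0.03 and 0.06. None of their genes passed the limma call, with 1 of 7 and 1 of 8 at an unadjusted p under 0.05.

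**Figure D4:**
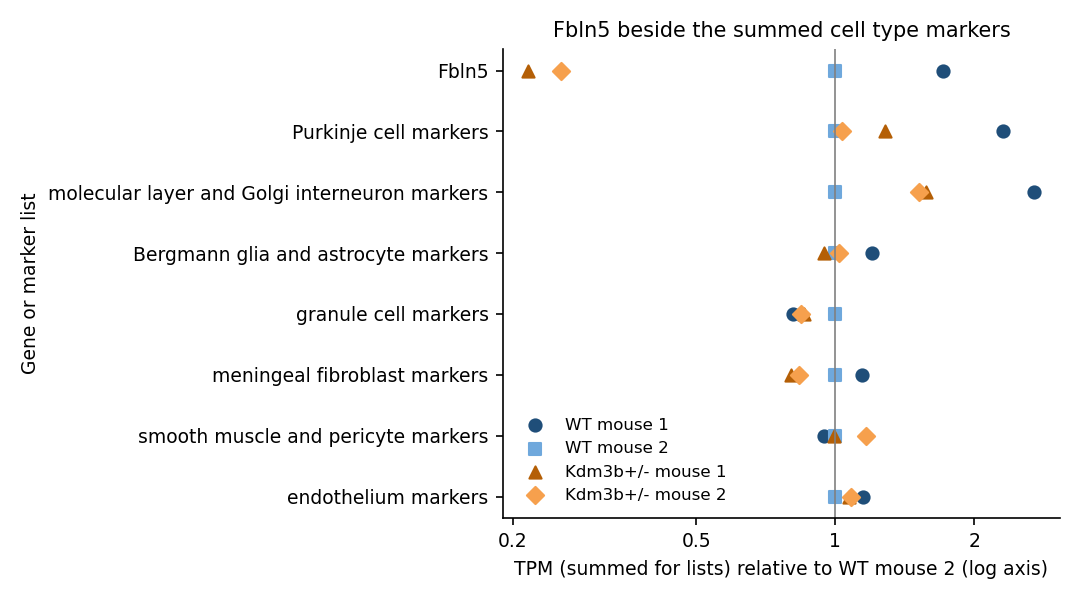
TPM of Fbln5 and summed TPM of 7 marker lists in each library, relative to WT mouse 2 (log axis). Purkinje cell and interneuron markers were highest in WT mouse 1, at 1650 and 346 TPM. Meningeal fibroblast markers summed to 61.6 and 54.0 TPM in WT mice and to 43.3 and 45.1 TPM in Kdm3b+/- mice. Endothelial and smooth muscle sums lay close together in all libraries, with Ly6c1 and Vtn as their largest parts. Fbln5 was at 2.96 and 3.48 TPM in Kdm3b+/- mice and at 13.7 TPM in WT mouse 2.

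Among the markers of Bergmann glia and astrocytes, 7 of the 9 tested had an unadjusted p under 0.05, in both directions, and the median difference was -0.08. The means of 4 were higher and those of 5 lower in Kdm3b+/- mice, and 2 passed the limma call, both higher. These were Aqp4, the astrocyte water channel, at 59.2 and 82.3 TPM in WT mice and 150 and 152 TPM in Kdm3b+/- mice (difference 1.10, limma adjusted p = 0.0329), and Fabp7, a fatty acid binding protein of radial and Bergmann glia, at 16.5 and 16.2 TPM in WT mice and 40.5 and 56.4 TPM in Kdm3b+/- mice (difference 1.49, limma adjusted p = 0.0133). Lower without overlap, but not past the call, were Timp4 (above), Gdf10 (51.7 and 25.7 TPM in WT mice, 19.4 and 15.6 TPM in Kdm3b+/- mice), Aldh1l1 (49.7 and 50.3 TPM against 27 and 35 TPM) and Slc1a3 (169 and 124 TPM against 104 and 104 TPM). The summed markers of that list overlapped, at 1240 and 1030 TPM in WT mice and 976 and 1050 TPM in Kdm3b+/- mice. Among the 10 oligodendrocyte markers, 5 were higher and 5 lower in mean, the median difference was -0.02, and 2 had an unadjusted p under 0.05. Of these, 1 passed the limma call, Mobp, a myelin protein, at 925 and 893 TPM in WT mice and 471 and 482 TPM in Kdm3b+/- mice (difference -0.93, limma adjusted p = 0.0133). Opalin, another myelin protein, was higher without overlap and did not pass, at 82.9 and 88.3 TPM in WT mice and 119 and 163 TPM in Kdm3b+/- mice (difference 0.69, limma adjusted p = 0.128). The calls of Aqp4, Fabp7 and Mobp were all lost without WT mouse 1 (differences 0.87, 1.51 and -0.90), and those of Fabp7 and Mobp were lost without WT mouse 2 as well (1.48 and -0.95). The 8 microglia markers summed to 278 and 282 TPM in WT mice and to 290 and 308 TPM in Kdm3b+/- mice, and the choroid plexus markers, of which Ttr and Folr1 were each at 0 in at least 1 library, to between 28.6 and 33.4 TPM. Nearly all of the choroid plexus sum was Otx2, at 24.9 and 28.7 TPM in WT mice and at 30.4 and 27 TPM in Kdm3b+/- mice, and Ttr was at most 1.28 TPM. None of the 8 microglia and 2 choroid plexus markers tested passed the limma call, with 1 and 0 at an unadjusted p under 0.05.

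The genes whose profile was most like that of Fbln5 were named by the root mean square (RMS) difference of log2(TPM + 1), centred on the mean of the 4 libraries, over all other genes tested. With 4 libraries in 2 groups this likeness is coarse and mostly repeats the difference between genotypes, so it is a description. Slc10a3, of a bile acid transporter family, came first with an RMS difference of 0.124, at 4.39 and 1.92 TPM in WT mice and listed at 0 in both Kdm3b+/- mice. Sult1a1, a phenol sulfotransferase, was at 50.6 and 31.6 TPM in WT mice and at 10.5 and 6.46 TPM in Kdm3b+/- mice, with an RMS difference of 0.284. In both genes WT mouse 1 was the highest library, as in Fbln5.

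Fmod encodes fibromodulin, a matrix proteoglycan that binds collagen. It was at 13.7 and 15.7 TPM in WT mice and at 2.53 and 2.76 TPM in Kdm3b+/- mice, with an RMS difference of 0.326. S100a9, a calcium-binding protein of neutrophils, was at 7.82 and 6.64 TPM in WT mice and at 1.82 and 0.945 TPM in Kdm3b+/- mice. The last of the 5 nearest genes, DQ267101, was at 3.19 and 2.72 TPM in WT mice and at 0.163 and 0.622 TPM in Kdm3b+/- mice. The other fibulins lay far down the same order, with Fbln1 at rank 1062, Fbln7 at rank 1165, Efemp1 at rank 2048 and Efemp2 at rank 5582, and Ltbp4 lay at rank 13358.

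On chromosome 12, 3 genes with a mean of at least 1 TPM started within 200 kb of the start of Fbln5. Trip11, a protein of the Golgi, started 94.1 kb away and was at 4.88 and 6.51 TPM in WT mice and at 7.24 and 6.95 TPM in Kdm3b+/- mice, a difference of 0.29 (SE 0.18, limma adjusted p = 0.444). Atxn3, the deubiquitinase ataxin-3, at 139 kb, and Cpsf2, a subunit of the pre-mRNA cleavage complex, at 157 kb, had differences of -0.02 and 0.07. None of the 3 passed the limma call or had an unadjusted p under 0.05. Tc2n, the remaining gene in the window, was listed at 0 in all libraries. Slc24a4, a sodium, potassium and calcium exchanger, started 310 kb away, outside the window, and was named after its values were seen. It was at 7.83 and 7.10 TPM in WT mice and at 2.67 and 1.76 TPM in Kdm3b+/- mice. Its difference was -1.41 (SE 0.20, limma adjusted p = 0.0239), and it passed the limma call. The call of Slc24a4 was lost with no filter on low TPM and without either WT mouse. A link between Slc24a4 and Fbln5 was not tested.

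**Figure D5:**
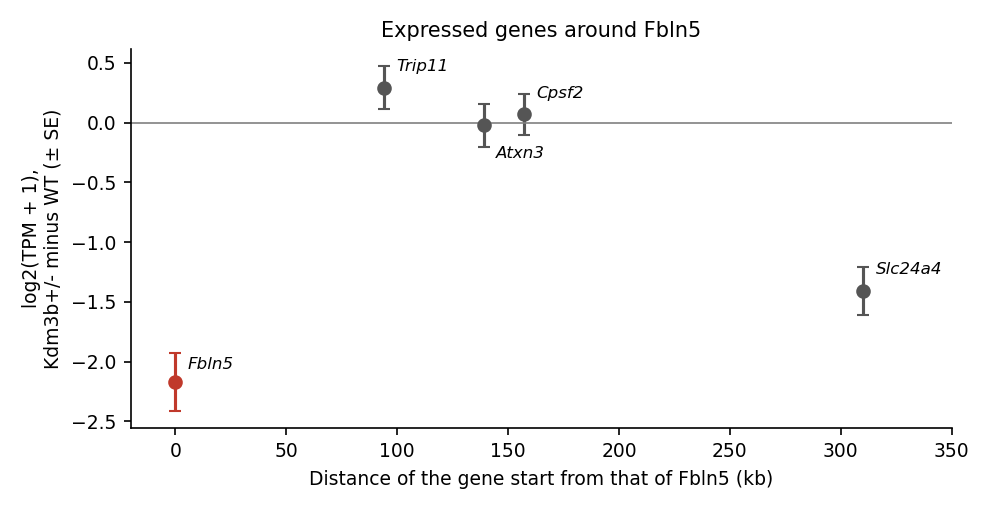
Difference of mean log2(TPM + 1), Kdm3b+/- minus WT (± SE), for expressed genes against the distance of their start from that of Fbln5 in kb. Trip11, Atxn3 and Cpsf2 lay between -0.02 and 0.29, Fbln5 lay at -2.17, and Slc24a4, at 310 kb, lay at -1.41.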

How the data were processed

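The measurements are bulk RNA-seq of vermal GCE tissue from 2 WT and 2 Kdm3b+/- mice, grouped by the genotype in the labels, which name the tissue as cerebellum. The authors trimmed the reads, aligned them with STAR and estimated abundance with StringTie; versions, build and annotation are not given in the sources used here. Of the matched identifiers, 99.6% lay on the chromosome given by RefSeq for GRCm38.p6, and 90.5% started within 1000 bases of its start. The deposited tables hold TPM and FPKM, which the authors scaled to gene length and library size, and coverage, which the authors deposited as mean read depth without normalization. The ratio of coverage to FPKM gave 4.919 and 5.743 gigabases aligned in WT mice and 5.694 and 6.691 in Kdm3b+/- mice. Read counts were not recovered here. TPM keeps no depth, and the coverage was used only for the read depths and gigabases given here.

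Rows sharing an identifier were summed. Those with a mean of 1 TPM or more were tested on log2(TPM + 1), which understates the change of low genes, with limma version 3.58.1 (eBayes with trend) in R version 4.3.3, genotype as the only term and Benjamini-Hochberg adjustment over 13652 genes. A DEX gene was one with a fold above 1.2, or 0.26 on the log2 scale, and an adjusted p below 0.05. The study's methods state this threshold as a log2 fold change. Genes that it names as DEX, such as Cbln1 and Cplx2, have log2 fold changes below that value. The threshold it applied was therefore not settled here. Alternatives changed the pseudocount, the filter, the unit, the scaling, the entry per gene, the eBayes settings, the replicate block and the libraries used. The fit was tested on simulated data. An exact permutation test (two-sided) of 2 against 2 mice cannot go below p = 0.333.

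The members and lists were chosen with earlier results of these data known. Named were all members, Kdm3b, the called genes of each list with the 3 highest in mean TPM and the 2 with the largest difference, the 5 profiles nearest to Fbln5 and expressed genes within 200 kb of it. For brevity, only part of the named genes of the lists is printed, and marker lists are given mainly as sums. Matplotlib version 3.10.9, pandas version 2.3.3 and NumPy version 2.4.6 were used for tables and figures in Python version 3.11.15, and robust fits used statmod version 1.5.0.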

Additional observations from a re-analysis of the deposited data

How the results depend on the processing

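Fbln5 was lower in Kdm3b+/- mice under all 14 alternatives, with a difference between -2.54 and -1.81. Since Fbln5 was chosen by this comparison and the alternatives reuse the same libraries, this is a description. With no filter on low TPM the number of members called was 0, and 2 genes in all passed the limma call, with 2248 at an unadjusted p under 0.05. The number of DEX genes was 63 in the limma fit described here, 38 with FPKM and 37 with eBayes without trend. With 1 library left out it ranged from 21 to 188, with 21 without WT mouse 1, 28 without WT mouse 2, 121 without Kdm3b+/- mouse 1 and 188 without Kdm3b+/- mouse 2, where the lone mouse of a group is assumed to vary like the other group. Of the 63, 16 were higher and 47 lower, against 23 and 38 with median-ratio scaling. The replicate numbers are those of different animals, with a correlation of deviations of 0.121 in 2 pairs. With the number as a block, 600 genes passed (173 higher, 427 lower), and 1 of the further elastic fiber genes and lysyl oxidases, Emilin2, was called, against 0 without the block. The block also gave calls to Itgb5, Timp4, Lum, Slco1a4, Cbln3, Opalin, Gdf10, Aldh1l1, Arhgef33, Calb1, Gad1 and Slc1a6 of the other lists. Calls were gained for Gdf10 without WT mouse 2 or without Kdm3b+/- mouse 1, for Opalin without Kdm3b+/- mouse 1 and for Slc6a13, a fibroblast marker, without Kdm3b+/- mouse 2. The causes were not tested. Of 965 values for 70 named genes other than Fbln5, 0 reversed, 872 kept their side of the threshold or moved by less than 1 SD, 26 lost the call, 11 gained it and 56 moved by more or changed sign without a call. Reversed here means a change of sign in a gene called in the limma fit described here. Changes of sign in genes without that call are among the 56, such as Pcp4, from -0.16 to 0.53 without WT mouse 1. The SD was the larger SD of log2(TPM + 1) within a genotype, from 2 mice each, so it is wide for some genes. Genes under 1 TPM were limited by depth.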
